A study of Homo sapiens with 4 samples.

Results

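The genes described here encode the plasma membrane and lysosomal transporters of amino acids and related neurotransmitters in the solute carrier (SLC) families 1, 3, 6, 7, 36, 38 and 43. They were taken by name from the deposited expression table, as symbols made of SLC1A, SLC3A, SLC6A, SLC7A, SLC36A, SLC38A or SLC43A followed by digits alone. That gave 33 of the 18375 genes in the table. 3 further names were dropped, the pseudogenes SLC6A10P and SLC7A5P1 and the gene SLC7A6OS, which lies opposite SLC7A6. Of 59 human genes listed by name for these families, the 26 without a row were not analysed here.

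The libraries came from RD, an established line of fusion-negative rhabdomyosarcoma, a tumour with features of developing skeletal muscle. One group of 2 libraries was made from untreated parental cells. The other group of 2 was made from vincristine-resistant derivatives, which were selected over 9 to 12 months. The starting dose of vincristine was 1 to 1.5 nM and was raised in steps of 10 to 20%. The half-maximal inhibitory concentration of these derivatives was at least 100-fold higher at the end. Vincristine, a vinca alkaloid, acts on tubulin and disturbs the mitotic spindle. All 4 carry the same cell line and wild-type genotype in the labels. No label says whether the replicates of a group were separate cultures or separate selections, or whether the resistant cells held the drug when RNA was taken, so the p-values reflect how far the libraries of a group lie apart, and that spread may be technical alone.

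Cells take up amino acids for protein synthesis, redox defence, nucleotide synthesis and osmotic balance. Many SLC7 proteins are light chains that reach the cell surface only as a disulfide-linked pair with a heavy chain, SLC3A2 or SLC3A1, and exchange one amino acid for another. SLC38 and several SLC6 carriers load the cell by coupling uptake to sodium, and so supply the amino acids that the exchangers then trade. The transcription factor ATF4, which is translated when amino acids are short or the endoplasmic reticulum is stressed, is a known activator of several genes of these families.

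Most transporter transcripts differed between resistant and parental cells, in both directions. With limma on log2 values and a threshold of 0.05 on the adjusted p, 13 of the 33 members were higher in resistant cells, 16 were lower and 4 were not called. Over all 18330 genes tested 66.9% were called, 32.7% higher and 34.2% lower, against 87.9%, 39.4% and 48.5% of the members. The median log2 fold change of the members was -0.09, beside 0.00 over all genes. A fold change here is resistant over parental on the scale of log2 of the normalized count plus 1. The values of the 2 groups did not overlap in 31 members, as in 82.1% of all genes. Of the members, 5 rose and 4 fell by at least 2-fold, and the share of all genes with such a change was not counted. Among those that rose, SLC6A12, SLC38A5, SLC7A3 and SLC7A4 had a mean below 100 normalized counts, and none of those that fell did.

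The members were also counted by level. Of the 26 members with a mean of at least 100 normalized counts over the 4 libraries, 16 fell, 7 rose and 3 were not called. Of the 7 members below that level, 6 rose, none fell and SLC7A10 was not called. Over all genes tested, 41.8% were lower and 35.3% higher at the upper level, and 15% lower and 26.2% higher at the lower one. SLC6A12 and SLC38A5 stood below 10 in both parental libraries and passed the filter on low values through the resistant libraries alone, so their rise was needed for them to be tested. SLC38A3 and SLC7A4, also among the scarce members that rose, were not called without the intensity trend (limma adjusted p = 0.0576 and 0.0592). The plot of normalized counts by library shows both groups of libraries for each member.

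**Figure D1:**
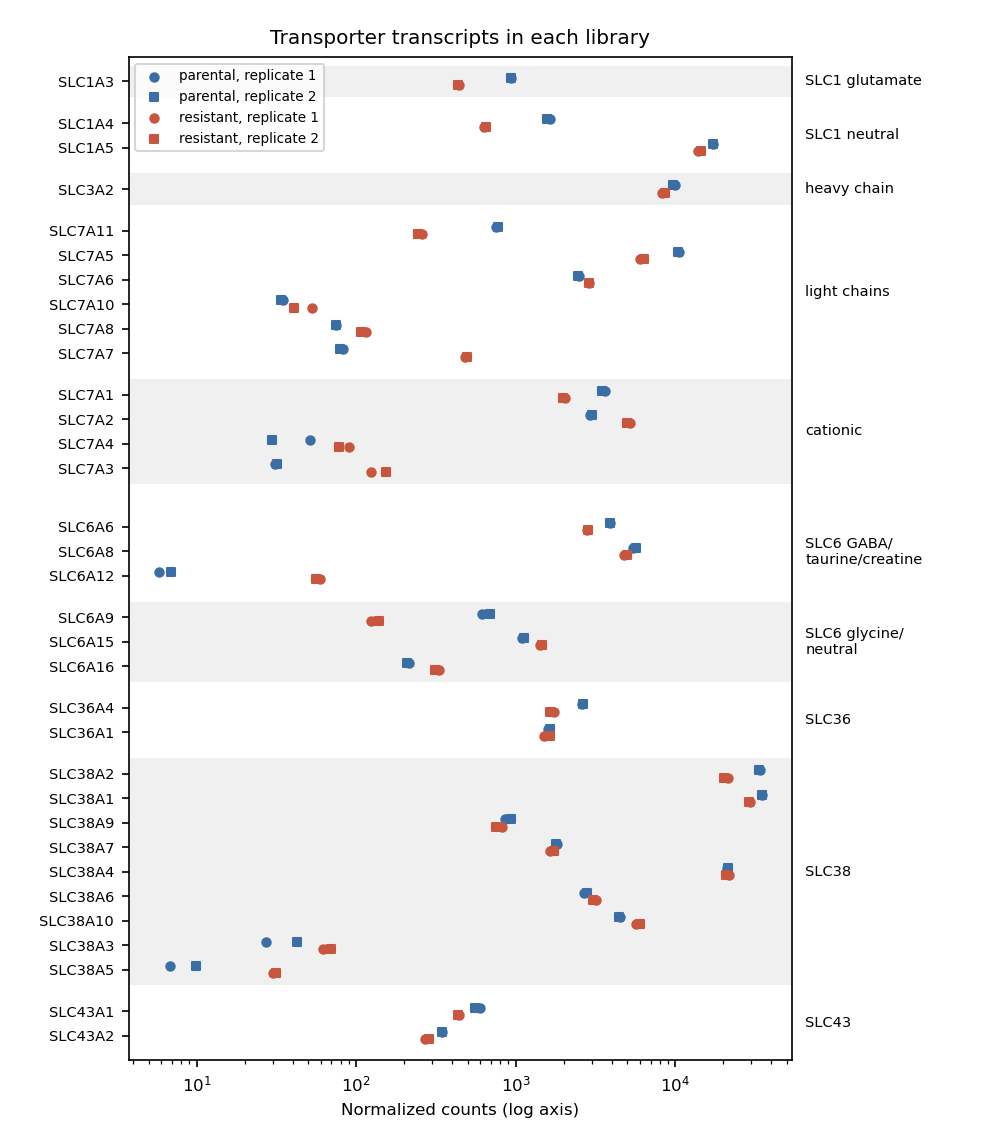
Normalized counts (horizontal log axis) of the 33 transporter members (rows, grouped by role) in each parental (blue) and resistant (red) library; circles are replicate 1 and squares replicate 2. The members run from 5.80 (SLC6A12) to 34866 (SLC38A1) normalized counts, and the libraries of a group lie close together compared with the gap between groups for genes such as SLC7A7, SLC6A12, SLC6A9 and SLC7A11.

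**Figure D2:**
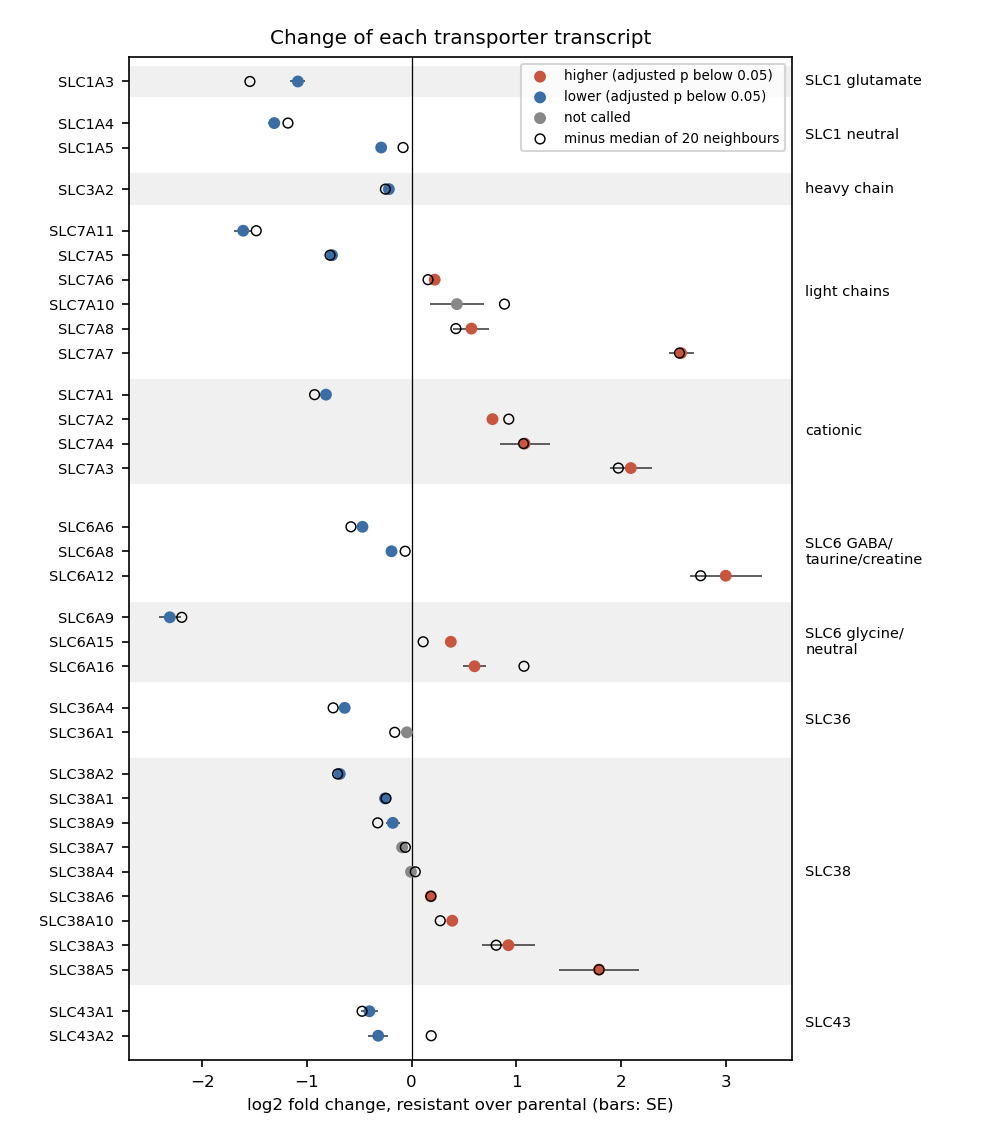
log2 fold change of resistant over parental cells (horizontal axis; bars are the limma standard error) for each member, coloured by call, with open circles for the value after subtraction of the median of 20 chromosomal neighbours. SLC6A9 lies farthest to the left at -2.31 and SLC6A12 farthest to the right at 3.00, and the open circle of SLC43A2 lies on the other side of 0 from its filled circle.

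Promoter sequences are shown for the members that carry the composite C/EBP-ATF response element, the site that ATF4 binds, searched here as TGATGNAAN with N for any base. RefSeq promoter windows of the GRCh38.p14 assembly, from 250 bases before to 50 bases after a start, were held for 25 of the 33 members, 46 windows in all. The element was found on either strand in one window each of SLC1A3, SLC1A4, SLC1A5, SLC38A1, SLC3A2 and SLC7A1. Each of these 6 members was lower in resistant cells. The element was chosen with earlier results of these data known, so this count is a description and not an independent test. All 6 had a mean of at least 100 normalized counts. At that level 16 of 26 members and 41.8% of all genes tested were lower. Of the 25 members with a window, 14 were lower, 7 higher and 4 not called, whereas 6 of the 8 without one were higher, so the searched members lean lower as a set. Among all tested genes with a window 39.3% were lower, and among those with the element in a window 42%. It occurs in 3.61% of all 35116 RefSeq windows of this length. The sites are shown 5′ to 3′ on the strand of the gene with up to 10 flanking bases on each side, and capitals mark the element or its reverse complement.

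SLC1A3, chr5:36596358-36596386, plus strand, starting 220 bases before a start: aggaaatgacTGATGCAAAgcagggttaa
SLC1A4, chr2:64989381-64989409, plus strand, starting 8 bases before a start, element on the other strand: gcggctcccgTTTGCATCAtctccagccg
SLC1A5, chr19:46784893-46784921, minus strand, starting 97 bases before a start: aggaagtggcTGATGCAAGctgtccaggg
SLC38A1, chr12:46266502-46266530, minus strand, starting 4 bases before a start: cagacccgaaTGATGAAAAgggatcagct
SLC3A2, chr11:62881725-62881748, plus strand, at base 37 of the transcript, element on the other strand: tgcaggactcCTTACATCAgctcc
SLC7A1, chr13:29595663-29595691, minus strand, at base 8 of the transcript: ggcgcactgcTGATGAAACctggcgccgg

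A match describes the letters of a window and does not show binding. For SLC7A11, SLC6A6, SLC6A15, SLC7A2, SLC38A3, SLC7A4, SLC7A3 and SLC6A12 no window was held, and the absence of these letters from a window says nothing of the factor. The antioxidant response element that the redox regulator NRF2 binds, also chosen with earlier results known, was searched as TGACNNNGC on both strands. It is in 13.3% of all windows and was found in 7 of the 46 windows held for members, from 7 members. Of these members, SLC1A3, SLC1A5, SLC3A2, SLC7A1 and SLC7A5 were lower, and SLC7A6 and SLC7A7 were higher. Calls over all genes with this element were not counted.

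In the SLC1 family, the 1 glutamate and aspartate carrier measured of 5 listed fell, as did both neutral amino acid exchangers. SLC1A3 encodes EAAT1, which takes up glutamate and aspartate with sodium and in brain clears glutamate from synapses. It had 933 and 928 normalized counts in the parental libraries and 440 and 435 in the resistant ones, a log2 fold change of -1.09 (SE 0.07, limma adjusted p = 2.14e-13). SLC1A4 encodes ASCT1, an exchanger of alanine, serine, cysteine and threonine, and its gene spans 64988477 to 65023865 on chromosome 2. It fell from 1632 and 1567 to 633 and 655, a log2 fold change of -1.31 (SE 0.06, limma adjusted p = 8.96e-17). The highest resistant library was thus far below the lowest parental library for both genes. SLC1A5 encodes ASCT2, the exchanger through which many tumour cells take up glutamine. It stood at 17259 and 17294 in parental and 13872 and 14398 in resistant cells, a log2 fold change of -0.29 (SE 0.03, limma adjusted p = 2.47e-09). The groups do not overlap, but the difference in SLC1A5 did not pass when a spread between cultures was assumed (edgeR adjusted p = 0.0935 at a dispersion set to 0.01). An antisense gene, AC008622.2, covers 23.4% of the exonic bases of SLC1A5, and no strand setting was given for the counting.

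The heavy chain and its main partner both fell, the partner by more. SLC3A2 encodes 4F2hc, also known as CD98, and lies on chromosome 11 from 62856102 to 62888875. It measured 9892 and 9718 in parental and 8302 and 8579 in resistant libraries, with a log2 fold change of -0.22 (SE 0.03, limma adjusted p = 1.46e-06), and it was called neither against a 1.2-fold change nor at a dispersion set to 0.01 (edgeR adjusted p = 0.228). SLC7A5 encodes LAT1, the exchanger that brings in leucine and other large neutral amino acids, and lies on chromosome 16 from 87830023 to 87869488. It fell from 10586 and 10399 to 6048 and 6351, a log2 fold change of -0.76 (SE 0.03, limma adjusted p = 6.36e-17). SLC7A5 has related pseudogene copies, one of which, SLC7A5P1, had 111 and 121 normalized counts in parental and 47.6 and 74.5 in resistant cells, so some reads may have been shared. The other heavy chain, SLC3A1, was not analysed here.

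The cystine exchanger fell more steeply than LAT1. SLC7A11, the light chain of system xc-, imports cystine for glutathione synthesis against export of glutamate, and its gene spans 138164097 to 138242349 on chromosome 4. It had 755 and 775 normalized counts in parental and 258 and 243 in resistant libraries, a log2 fold change of -1.61 (SE 0.08, limma adjusted p = 2.04e-15). Both resistant libraries of SLC7A11 lie far below both parental ones, and the antisense gene SLC7A11-AS1 shares 8.97% of its exonic bases.

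The y+LAT light chains, which exchange cationic for neutral amino acids, moved the other way. SLC7A7 encodes y+LAT1, the protein lost in lysinuric protein intolerance, and lies on chromosome 14 from 22773222 to 22829820. It rose from 83.1 and 79.5 to 480 and 498 normalized counts, by 2.57 on the log2 scale (SE 0.12, limma adjusted p = 1.51e-16), the largest increase among members with at least 100 normalized counts in either group. SLC7A6, which encodes y+LAT2, rose from 2500 and 2442 to 2892 and 2869, a log2 fold change of 0.22 (SE 0.04, limma adjusted p = 4.38e-05). Because SLC7A6OS covers 44.4% of the exonic bases of SLC7A6 from the opposite strand, reads from these overlapping genes cannot be separated without strand. The SLC7A6 call was lost against a 1.2-fold change and at a dispersion set to 0.01 (edgeR adjusted p = 0.223).

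The remaining light chains were scarce. SLC7A8, the LAT2 exchanger of neutral amino acids, had 74.4 and 74.6 normalized counts in parental and 116 and 107 in resistant cells, a log2 fold change of 0.57 (SE 0.17, limma adjusted p = 0.00479). DESeq2 on the recovered reads did not call SLC7A8. SLC7A10, the asc-1 carrier of small neutral amino acids and D-serine, had 34.8 and 33.8 in parental and 53.0 and 41.0 in resistant libraries and was not called, with a log2 fold change of 0.43 and a 95% interval of -0.09 to 0.96.

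Set per kilobase of exon, so that genes can be compared with each other, the light-chain pool was smaller in resistant cells and differently composed. The 6 light chains summed to 2679 and 2632 normalized counts per kilobase in parental libraries and to 1812 and 1870 in resistant ones. SLC7A5 made up 83.3 and 83.2% of that sum in parental and 70.3 and 71.6% in resistant libraries. The share of SLC7A6 was 12.3 and 12.2% against 21.0 and 20.2%, with no correction for the 44.4% of its exonic bases that SLC7A6OS covers. That of SLC7A7 was 0.605 and 0.589% against 5.17 and 5.19%, and that of SLC7A11 was 2.92 and 3.05% against 1.47 and 1.35%. SLC7A11 thus ranked above SLC7A7 within the parental pool and below it within the resistant pool. The level of SLC3A2 relative to the sum of its light chains was 0.713 in both parental libraries and 0.885 and 0.886 in the resistant ones. These shares are descriptions of 4 libraries, for which an exact two-sided permutation test of 2 against 2 allows no p below 0.333.

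**Figure D3:**
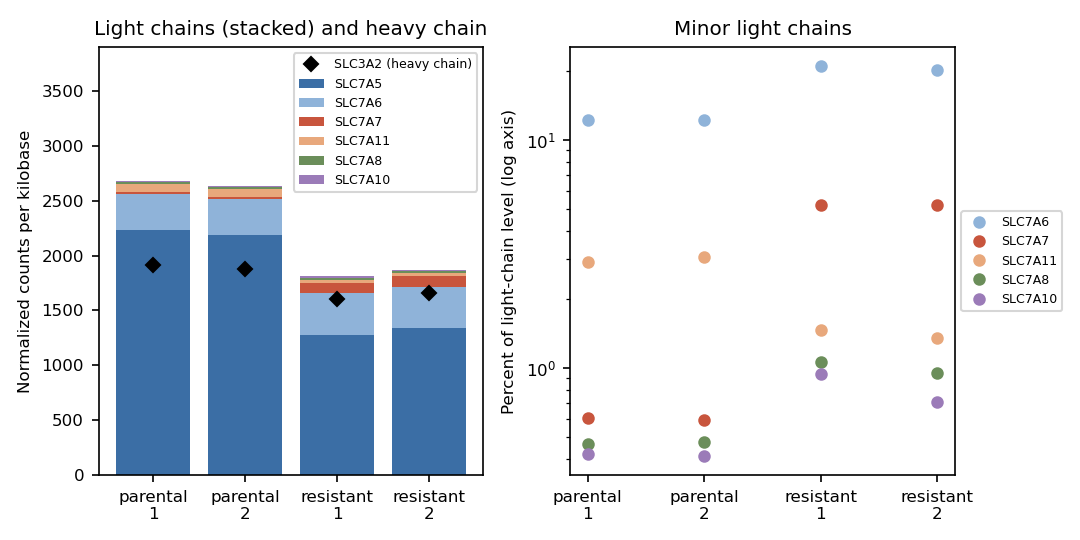
Left, normalized counts per kilobase of exon of the 6 light chains (stacked bars) and of the heavy chain SLC3A2 (black diamonds) in each library; right, percent of the light-chain sum held by each light chain other than SLC7A5 (log axis). SLC7A5 holds most of every bar, and the points of SLC7A7 move from below to above those of SLC7A11 between parental and resistant libraries.

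Among the cationic amino acid transporters, SLC7A1 fell and the other 3 measured genes rose. These carriers bring arginine, lysine and ornithine into the cell without a heavy chain. SLC7A1, the widely expressed CAT1 on chromosome 13 from 29509410 to 29595688, had 3625 and 3459 normalized counts in parental and 2030 and 1988 in resistant libraries, a log2 fold change of -0.82 (SE 0.04, limma adjusted p = 2.41e-15). SLC7A2, the CAT2 carrier, rose from 2921 and 3024 to 5188 and 4978, by 0.77 (SE 0.04, limma adjusted p = 1.07e-15). SLC7A3, the CAT3 carrier, rose from 30.9 and 31.8 to 123 and 153, by 2.09 (SE 0.20, limma adjusted p = 7.45e-10). In reads, SLC7A3 had 64 in the parental and 274 in the resistant libraries, a ratio of 4.43 with an exact 95% interval of 3.36 to 5.91 that covers counting error only. SLC7A4, a related protein without established transport, had 51.2 and 29.8 against 89.8 and 78.3 normalized counts and rose by 1.08 (SE 0.24, limma adjusted p = 2.73e-04).

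The order of SLC7A1 and SLC7A2 differed between the groups. Per kilobase of exon SLC7A1 stood at 471 and 450 in parental libraries, above SLC7A2 at 369 and 383, and at 264 and 258 in resistant libraries, below SLC7A2 at 656 and 630. The 4 cationic carriers together came to 875 and 858 normalized counts per kilobase in parental and 1011 and 988 in resistant libraries, so their sum was higher in resistant cells while that of the light chains was lower.

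The SLC6 family held the largest decrease and the largest increase of all members. SLC6A9 encodes GlyT1, the sodium- and chloride-coupled glycine transporter, and lies on chromosome 1 from 43991500 to 44031467. It fell from 617 and 688 to 123 and 138 normalized counts, a log2 fold change of -2.31 (SE 0.10, limma adjusted p = 9.48e-17), a 4.96-fold lower level. SLC6A12 encodes BGT1, which carries betaine and the neurotransmitter GABA and serves osmotic balance in kidney, and lies on chromosome 12 from 190077 to 214570. It had 5.80 and 6.96 normalized counts in parental and 59.5 and 56.3 in resistant libraries, a log2 fold change of 3.00 (SE 0.35, limma adjusted p = 1.81e-08). SLC6A12 rests on 13 parental and 114 resistant reads, a ratio of 9.07 with an exact 95% interval of 5.10 to 17.6, so it remained one of the scarcest members even where it was high.

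Carriers of the organic solutes taurine and creatine fell moderately. SLC6A6, the taurine transporter TauT, had 3902 and 3896 normalized counts in parental and 2796 and 2839 in resistant libraries, a log2 fold change of -0.47 (SE 0.04, limma adjusted p = 4.30e-11). SLC6A8, the creatine transporter, had 5466 and 5642 against 4780 and 4949, a log2 fold change of -0.19 (SE 0.04, limma adjusted p = 4.50e-05). That of SLC6A8 was not called at a dispersion set to 0.01 (edgeR adjusted p = 0.298) or after subtraction of its chromosomal neighbours, and the near-identical SLC6A10P, at 63.0 to 70.6 normalized counts, may share reads with it. SLC6A15, a sodium-coupled carrier of branched-chain amino acids and proline known from brain, rose from 1092 and 1134 to 1425 and 1463, by 0.38 (SE 0.05, limma adjusted p = 8.96e-07), of which 0.11 was left, and not called, after subtraction of its neighbours. SLC6A16, an orphan member of the family, rose from 216 and 207 to 332 and 310, by 0.60 (SE 0.11, limma adjusted p = 1.67e-05). The transporters of noradrenaline, dopamine and serotonin, SLC6A2, SLC6A3 and SLC6A4, were not analysed here.

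The abundant sodium-coupled carriers of SLC38 split although 3 of them are neighbours in the genome. SLC38A1, SLC38A2 and SLC38A4 lie on chromosome 12 between 46183063 and 46832408. SLC38A2, the SNAT2 carrier that amino acid shortage induces in many cells, fell from 33806 and 33422 to 21512 and 20300 normalized counts, a log2 fold change of -0.69 (SE 0.03, limma adjusted p = 3.88e-17). SLC38A1, the glutamine carrier SNAT1, had 34699 and 34866 against 29433 and 28936, a log2 fold change of -0.25 (SE 0.03, limma adjusted p = 4.92e-09), and was not called at a dispersion set to 0.01 (edgeR adjusted p = 0.149). SLC38A4, the SNAT4 carrier best known from liver, had 21187 and 21447 against 21555 and 20931 and was not called, with a log2 fold change of -0.01 and a 95% interval of -0.06 to 0.05. The resistant and parental libraries overlap in SLC38A4 and are far apart in SLC38A2. Whether the changes of these neighbours differ from each other was not tested.

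Of the less abundant SLC38 genes, 4 were higher. SLC38A10 rose from 4518 and 4449 to 5702 and 6045 normalized counts, by 0.39 on the log2 scale (SE 0.04, limma adjusted p = 5.90e-10), and SLC38A6 rose from 2673 and 2778 to 3167 and 3029, by 0.18 (SE 0.04, limma adjusted p = 4.14e-04), a change not called against a 1.2-fold change or at a dispersion set to 0.01. SLC38A3, the glutamine carrier SNAT3, had 27.1 and 42.7 against 61.7 and 69.7 normalized counts and rose by 0.93 (SE 0.25, limma adjusted p = 0.00197). SLC38A5, the SNAT5 carrier of glutamine and other neutral amino acids, rose from 6.77 and 9.94 to 30.3 and 31.5, a log2 fold change of 1.79 (SE 0.38, limma adjusted p = 1.88e-04), and rests on 17 parental and 61 resistant reads, a ratio of 3.71 with an exact 95% interval of 2.14 to 6.78. SLC38A7, a lysosomal glutamine exporter, had 1812 and 1792 against 1648 and 1740 normalized counts and was not called, with a log2 fold change of -0.09 and a 95% interval of -0.19 to 0.01. Without resistant replicate 2, SLC38A7 passed as lower.

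Among SLC36 and the lysosomal sensor SLC38A9, 2 of 3 measured genes were lower and 1 was not called. SLC38A9, which senses arginine at the lysosome and helps activate the kinase complex mTORC1, had 852 and 929 normalized counts in parental and 822 and 750 in resistant libraries, a log2 fold change of -0.18 (SE 0.07, limma adjusted p = 0.0228). The SLC38A9 call was lost under 8 of 18 alternatives, among them DESeq2, scaling to equal totals, leaving out parental replicate 2 and leaving out resistant replicate 2. SLC36A4, a carrier of proline and tryptophan, fell from 2592 and 2656 to 1725 and 1647, a log2 fold change of -0.64 (SE 0.05, limma adjusted p = 1.99e-12). SLC36A1, the proton-coupled carrier PAT1, had 1590 and 1636 against 1493 and 1639 normalized counts and was not called, with a log2 fold change of -0.04 and a 95% interval of -0.15 to 0.07. The groups overlap in SLC36A1 and are separated in SLC36A4. With the neighbour median of 0.12 subtracted, SLC36A1 stood at -0.16 and was called lower.

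Both measured SLC43 genes were lower. SLC43A1, the LAT3 carrier that lets large neutral amino acids cross the membrane without exchange, had 600 and 557 normalized counts in parental and 439 and 435 in resistant libraries, a log2 fold change of -0.40 (SE 0.08, limma adjusted p = 7.48e-05). SLC43A2, the LAT4 carrier, had 347 and 346 against 268 and 287, a log2 fold change of -0.32 (SE 0.10, limma adjusted p = 0.00575). The SLC43A2 call was lost with DESeq2 and at a dispersion set to 0.01 (edgeR adjusted p = 0.110).

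The sum over all 33 members per kilobase of exon was lower in resistant cells, although 13 members rose, and abundant members weigh most in it. It was 23895 and 23834 normalized counts per kilobase in resistant against 28664 and 28659 in parental libraries. The 9 SLC38 genes made up 52.9 and 53.1% of that sum in parental and 54.8 and 53.5% in resistant libraries, and the 2 neutral SLC1 exchangers 18.9% in each parental and 17.8 and 18.5% in the resistant libraries. SLC38A4 with a mean of 5143 normalized counts per kilobase in parental and 5125 in resistant cells ranked first over all libraries. SLC1A5 followed with 5185 and 4242, and SLC38A2 with 5091 and 3167. In parental libraries these 3 genes stood close together at 5062 to 5190 per kilobase, and in resistant libraries they were spread from 3075 to 5200. SLC38A1, SLC3A2, SLC7A5, SLC6A8 and SLC38A10 complete the 8 most abundant members per length. Exon lengths come from GENCODE 29, which may differ from the annotation used for the counting. They include bases that genes on the other strand overlap, such as 23.4% of those of SLC1A5, so the order of genes at close levels is uncertain.

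Several members lie where the genes around them also differed between the groups, and for these the neighbourhood is given beside the change. The median log2 fold change of the 20 nearest tested genes was -0.51 around SLC43A2 on chromosome 17, -0.47 around SLC6A16 and -0.45 around SLC7A10 on chromosome 19, and 0.46 around SLC1A3 on chromosome 5. With that median subtracted, SLC43A2 stood at 0.19 and was not called, SLC6A16 at 1.07, SLC7A10 at 0.89 and called higher, and SLC1A3 at -1.54. SLC1A5, at -0.29 among neighbours with a median of -0.21, kept a difference of -0.08 (limma adjusted p = 0.0205, which takes the neighbour median as known). Of the other members that changed at least 2-fold, SLC6A12 lay among neighbours with a median of 0.24, SLC1A4 at -0.13, SLC7A11 at -0.12, SLC7A3 at 0.12 and SLC6A9 at -0.11, and SLC7A7, SLC7A4 and SLC38A5 at 0.02, 0.01 and -0.00. The part of gene dosage in any of these values was not tested.

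Genes listed for the ATF4 and amino acid stress response were mostly lower, as many abundant transporters were. Of 29 measured genes of this list, 21 fell, 6 rose and 2 were not called, with a median log2 fold change of -0.44. The 6 that rose were SHMT2 by 0.61, DDIT4 by 0.48, ALDH18A1 by 0.46, PSAT1 by 0.23, XPOT by 0.11 and the scarce NUPR1 by 0.76. Not all of the 29 are genes that respond to amino acid shortage. EIF2AK4 and EIF2AK3, which fell, and EIF2S1, which was not called, act upstream of ATF4. Some genes of this list also stand in the lists that follow. Beside this list and those that follow, 34.2% of all genes tested were lower and 32.7% higher. Among all genes with a mean of at least 100 normalized counts the shares were 41.8% lower and 35.3% higher. ATF4 itself had 18787 and 18907 normalized counts in parental and 15897 and 16174 in resistant libraries, a log2 fold change of -0.23 (SE 0.03, limma adjusted p = 6.45e-08). PPP1R15A, which restores translation after stress, fell with a log2 fold change of -1.33, the pseudokinase gene TRIB3 with -1.53 and the secreted glycoprotein gene STC2 with -0.60. CBS, an enzyme of cysteine synthesis with a near-identical annotated copy that makes its count uncertain, fell by 1.42. ATF4 is controlled mainly at translation, which these transcript levels do not measure.

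A list of cystine use, glutathione and related redox genes was described beside SLC7A11. Of 20 measured, 11 fell, 2 rose and 7 were not called, with a median of -0.35. Not all of them encode enzymes of cystine use or glutathione. CD44, NQO1, NFE2L2, HMOX1 and KEAP1, which fell, do not, nor do ACSL4, AIFM2 and TXNRD1, which were not called. CD44, which stabilises SLC7A11 protein at the membrane, fell from 27182 and 26981 to 15642 and 15025 normalized counts, a log2 fold change of -0.82. NQO1, a target of NRF2, fell with a log2 fold change of -0.73, and GPX4, the glutathione peroxidase that repairs lipid peroxides, with -0.62. The 2 that rose, GCLC of glutathione synthesis by 0.13 and the gamma-glutamyltransferase gene GGT1 by 0.38, were chosen for mention after their values were seen, and DESeq2 called neither. CHAC1, a glutathione-degrading enzyme chosen after its value was seen, fell by 1.91.

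The lysosomal sensing and mTORC1 list had 20 of 40 measured genes lower, 11 higher and 9 not called, with a median of -0.14. Of all genes with a mean of at least 100 normalized counts, 41.8% were lower and 35.3% higher. SESN3, which encodes a sestrin that restrains mTORC1, rose from 82.2 and 72.6 to 520 and 528 normalized counts, by 2.75 on the log2 scale, while its relative SESN2, the leucine sensor, fell by 1.07. SEH1L, of the GATOR2 complex, fell with a log2 fold change of -0.91 and RRAGD, a Rag GTPase, with -0.92. Of 38 measured amino acid enzyme genes, 15 were higher and 13 lower, with a median of 0.07. SHMT2, which makes glycine from serine in mitochondria, rose by 0.61 and the glutamine synthetase gene GLUL by 0.55, whereas the asparagine synthetase gene ASNS fell with a log2 fold change of -0.83 and PSPH, the last step of serine synthesis, with -0.74.

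Enzymes that handle GABA, creatine and taurine are given beside their carriers. Of 16 measured, 8 rose, 4 fell and 4 were not called, with a median of 0.20. ABAT, the transaminase that breaks down GABA, rose from 358 and 379 to 3117 and 3033 normalized counts, by 3.06 on the log2 scale (SE 0.06), and GAD1, which makes GABA, fell from 278 and 329 to 63.8 and 64.0, a log2 fold change of -2.23 (SE 0.14). GATM, of creatine synthesis, rose by 0.77 and the muscle creatine kinase gene CKM by 1.32. Among 15 other measured carriers of amino acids and transmitters outside these families, 5 rose, 5 fell and 5 were not called, with a median of 0.18. The sialic acid and glutamate carrier gene SLC17A5 fell with a log2 fold change of -0.92, the monoamine carrier gene SLC29A4 with -0.86 and the lysosomal cysteine importer gene MFSD12 with -0.42. SLC18A1, a vesicular monoamine carrier, rose from 24.2 and 35.8 to 286 and 363 normalized counts, by 3.41 on the log2 scale.

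**Figure D4:**
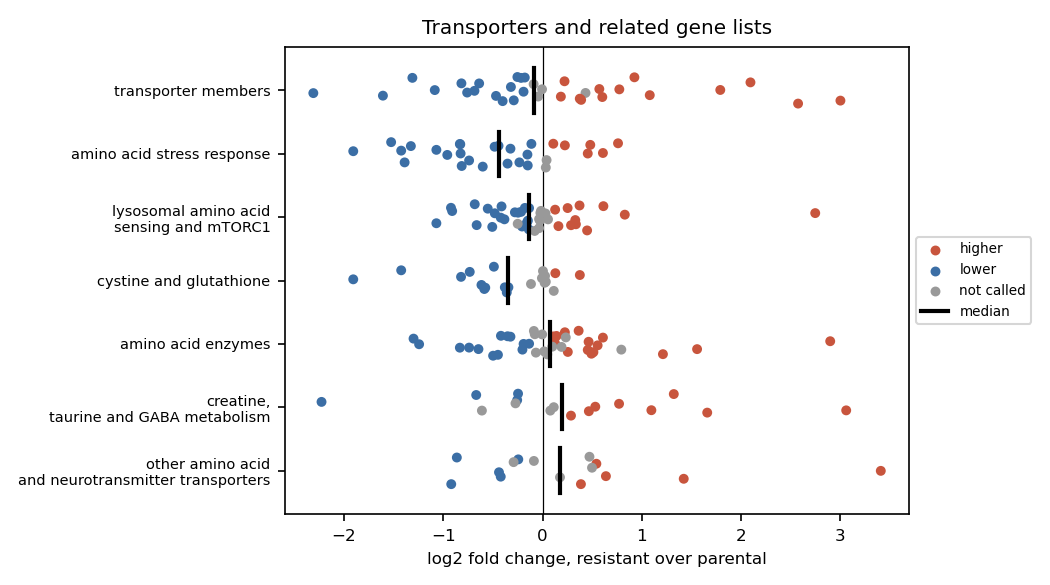
log2 fold change of resistant over parental cells (horizontal axis) for each gene of the transporter set and of 6 related lists (rows, with vertical jitter); red is called higher, blue called lower, grey not called, and the black bar is the median. The medians of the amino acid stress list (-0.44) and of the cystine and glutathione list (-0.35) lie below 0, and the transporters spread from -2.31 to 3.00 about a median of -0.09.

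The cells carried muscle markers in every library, as their label implies. Of 7 listed markers of muscle and rhabdomyosarcoma, 5 rose, MYOD1 was not called and MYF5 had no row. The summed level of the 6 measured was 55820 to 56255 normalized counts in parental and 121696 to 125738 in resistant libraries. Of 9 neuronal markers 4 had a row, 2 higher and 2 lower, and their sum was 2701 to 2735 in parental and 2526 to 2618 in resistant libraries. Astrocyte, epithelial and leukocyte markers with a row summed to between 11.9 and 210 for each list and library, no endothelial marker had a row, and of the fibroblast list COL1A1 gave nearly all of a sum that went from 40315 to 40830 up to 67021 to 68259. The part of these differences in the transporter values was not tested, and in bulk RNA fewer cells of a type and less RNA per cell cannot be told apart. Library depth ranged from 58861281 to 67690557 recovered reads over the genes of the table.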

How the data were processed

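Poly(A)-enriched RNA of 4 libraries was analysed, 2 per group by sample title. The upstream tools named are bcl2fastq 2.17, STAR 2.5.2b on GRCh38, Subread 1.5.2 with featureCounts, and DESeq2, with no order, per the submitters' processing notes. For annotation and strand the setting is not given in the sources used. The library columns deposited by the authors hold a signal, gene counts divided by 1 size factor per library. In each column 100% of values were whole multiples of 1 step within 0.01, so reads were recovered. The authors' log2 column is resistant over parental, and the authors' p-value columns belong to it. The authors' deposited table calls 26 members, each also called here with the same sign.

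Genes with at least 10 in at least 2 libraries (18330) were fitted as log2 of the value plus 1 with limma 3.58.1 (intensity trend, group alone, Benjamini-Hochberg over all genes, threshold 0.05) in R 4.3.3. The code was also run on counts simulated at the edgeR common dispersion with few genes changed. That setting is unlike these data, where 66.9% of genes were called, so the run does not bear on the calls. Alternatives used edgeR 4.0.16 and DESeq2 1.42.0 on recovered reads, among others. edgeR estimated a common dispersion of 0.000562. Replicate pairs differed by more than sampling noise (chi-square per gene 1.61 and 4.00).

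Members, lists and motifs were chosen with earlier results of these data known. Values by library are given for the 12 called members with the largest change and at least 100 on average in one group, the 8 most abundant per length, the heavy and light chains and SLC38A9, and most others; lists name up to 4 members with the smallest p, and ATF4. Gene positions, exon lengths and the 20 nearest tested genes come from GENCODE 29, which holds 17804 of the identifiers. Intervals of read ratios are exact 95% binomial intervals. The test form planned for normalized values applied. Promoter windows are RefSeq's, on GRCh38.p14. Among the list genes, LARS1 and SLC66A1 were matched by gene identifier.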

Additional observations from a re-analysis of the deposited data

How the results depend on the processing

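Over 18 alternatives, 16 of the 33 members kept their direction and their side of the threshold, among them SLC6A9, SLC7A11, SLC1A4, SLC7A7 and SLC6A12. Members called numbered 13 higher and 16 lower. Against a 1.2-fold change, 9 were higher and 9 lower, beside 3380 higher and 3414 lower of all genes. With a dispersion of 0.01, an assumed spread between cultures, 11 of the 33 members were higher and 10 lower. Lower members thus no longer outnumbered higher ones. Of all 18330 genes tested, 4049 were higher and 3891 lower in that setting. Without the intensity trend 11 were higher and 15 lower, with SLC38A3, SLC7A4 and SLC38A9 lost. SLC43A2 changed sign with the neighbour median removed (0.19, limma adjusted p = 0.0958). SLC36A1, not called, ranged from -0.111 to 0.0228 as libraries were left out in turn. SLC38A4, not called, had log2 fold changes of 0.0281 after scaling to the same total, 0.0313 with scaling that left out the 20 most abundant genes and 0.0359 with the neighbour median removed, and ranged from -0.0263 to 0.0161 as libraries were left out. In the cystine and glutathione list the 2 higher genes became 0 with DESeq2 and 0 to 3 as libraries were left out. The causes were not tested. With replicate number as a replicate block, the members stayed at 13 higher and 16 lower. Same-numbered libraries did not deviate together (correlation -0.00 over 13130 genes), and the numbers only name samples. Scarce members such as SLC6A12 and SLC38A5 are limited by depth, with 13 and 17 parental reads.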
